A study of Caenorhabditis elegans with 2 samples.

Results

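The Caenorhabditis elegans genes examined act in the eggshell and in egg activation, and number 10: egg-1, egg-2, egg-3, egg-6, chs-1, cbd-1, perm-2, perm-4, cpg-1 and cpg-2. They were taken by gene name from a deposited table of RPKM values (reads scaled to gene length and to the size of the library), in which all 10 had a row among 19874 genes. The RNA came from mixed-stage cultures grown at 20 °C on OP50 bacteria. There was 1 group of 2 samples, replicates 1 and 2, of a strain with the e1370 allele of daf-2, the insulin/IGF-like receptor gene, and the m20 allele of daf-12, a nuclear hormone receptor gene. Both samples carry both alleles. Other genotypes were not analysed here, and the values are therefore levels in this strain and not effects of either allele. Whether the replicates came from separate cultures is not stated, so their spread may be technical. In whole animals of mixed stage, fewer cells of a type and less RNA per cell cannot be told apart.

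The eggshell of C. elegans is secreted by the fertilized egg from material made in the oocyte. An outer vitelline layer is present before sperm entry, a chitin layer and a proteoglycan layer are added after it, and a lipid-rich barrier closes the egg. Sperm entry, the release of the secreted material and the exit from meiosis are linked in egg activation, which is run by proteins that the oocyte places at its cortex in advance.

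Scaling steps between RPKM values gave the depth of each library, 10540250 reads in replicate 1 and 14651002 reads in replicate 2, and from it the read number of each gene with a known coding length. The 10 genes had from 1734 to 18662 reads over both replicates, and all 10 were above a floor of 3 reads in each replicate. Read numbers came out whole in both replicates, within 0.1 read beyond rounding, for 9 of the 10. This check is weak for the longest genes, since rounding alone allows 0.29 read in replicate 2 for chs-1 and cbd-1. The gene that failed it was perm-4, where the annotated coding length gave 4419.49 and 6681.71 reads, so its read numbers are approximate. Intervals below are exact Poisson 95% intervals, which cover counting error only. Adult markers were abundant, with a summed level of 8409 to 9012 RPKM for vit-2, vit-6 and col-19. Of 4 embryonic markers, end-1, end-3 and med-1 had from 0 to 3 reads in each library and pes-10 had 25 and 31 reads, at 1.94 and 1.73 RPKM. Whether these 4 genes reflect the share of embryos in the cultures was not tested. Sperm markers were present and higher in replicate 2 for 3 of 4, with msp-19 at 154 and 201 RPKM, ssq-4 at 61.2 and 70.1 RPKM, msp-10 at 3.46 and 11.02 RPKM and msp-142 at 52.1 and 51.6 RPKM. The msp genes are near-identical copies, and reads can be split between them. Whether the sperm signal bears on the results below was not tested. The 2 dauer markers, cut-1 and col-40, summed to 2.06 to 3.31 RPKM, and 2 body wall muscle markers, myo-3 and unc-54, to 168 to 174 RPKM.

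Eggshell genes covered a 25.2-fold range of levels, and the transcripts of the vitelline and proteoglycan layer proteins were more abundant than that of chs-1, the chitin synthase gene. Their median came to 122 RPKM in replicate 1 and to 112 RPKM in replicate 2, where that of all genes was 6.21 and 6.13 RPKM. All 10 were at a mean of at least 1 RPKM, beside 72% of all genes. From perm-2 down to egg-1, 6 of the 10 had a mean of at least 100 RPKM, beside 7.63% of all genes. Their percentile ranks in the table ran from 77.1 for chs-1 to 98.6 for perm-2, with a median of 93.3. As a share of the summed RPKM of the table, they took 0.220% in replicate 1 and 0.216% in replicate 2. The vitelline layer genes perm-2, perm-4 and cbd-1 made up 54.5% and 57.3% of that share, the proteoglycan genes 33.8% and 32.1%, and the 3 genes of sperm entry and egg activation 8.79% and 8.01%.

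**Figure D1:**
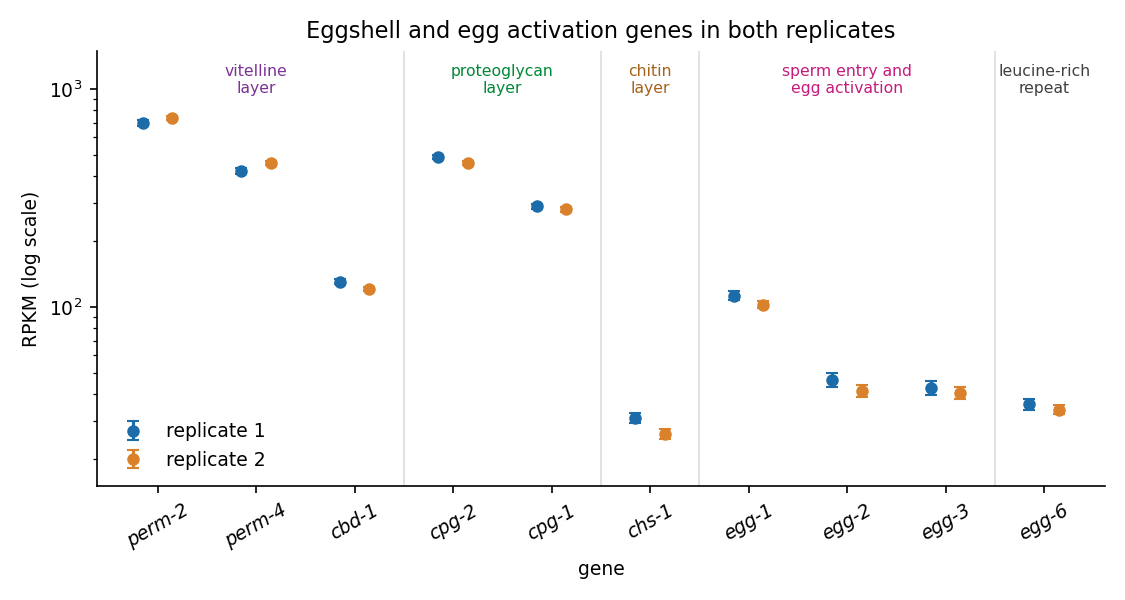
RPKM (vertical axis, log scale) of each gene in replicate 1 (blue) and replicate 2 (orange), grouped by role, with exact Poisson 95% intervals that cover counting error only. perm-2 is highest, at 698 and 738 RPKM, and chs-1 lowest, at 30.98 and 26.04 RPKM.

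In the vitelline layer, perm-2 and perm-4, whose products depend on each other for their place in that layer, were the first and the third most abundant of the 10 genes. perm-2 was at 698 RPKM in replicate 1 (interval 677.5 to 718, 4501 reads) and at 738 RPKM in replicate 2 (721 to 756, 6620 reads), with a mean of 718 ± 28.7 RPKM (SD, n = 2). perm-4 was at 421 RPKM in replicate 1 (409 to 433.5) and 458 RPKM in replicate 2 (447 to 469), with a mean of 439 ± 26.1 RPKM (SD, n = 2). Both were higher in replicate 2, and in neither did the intervals of the replicates overlap, though those of perm-2 did when both replicates were scaled to equal sums of RPKM. cbd-1 encodes a protein with chitin-binding domains on which the other vitelline proteins are assembled. It was at 130.4 RPKM in replicate 1 (127 to 134, 5444 reads) and 121 RPKM in replicate 2 (118 to 124, 7027 reads), with a mean of 126 ± 6.58 RPKM. It was lower in replicate 2, again without overlap of the intervals. The perm-2 transcript was 1.66 times as abundant as that of perm-4 in replicate 1 (interval 1.59 to 1.73) and 1.61 times in replicate 2 (1.56 to 1.67), so their ratio, 1.63 ± 0.032 (SD, n = 2), moved less than their levels.

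cpg-1 and cpg-2 encode chondroitin proteoglycans with chitin-binding domains, which overlap in function in the inner layer of the shell. cpg-2 was at 486 RPKM in replicate 1 (476 to 497, 8072 reads) and 459 RPKM in replicate 2 (450.2 to 468, 10590 reads), with a mean of 473 ± 19.3 RPKM (SD, n = 2). cpg-1 was at 289 RPKM in replicate 1 (281.5 to 297, 5349 reads) and 280.1 RPKM in replicate 2 (274 to 287, 7203 reads), with a mean of 285 ± 6.38 RPKM. cpg-1 had the least relative spread of the 10 genes, with an SD of 2.24% of its mean. cpg-2 was 1.68 times as abundant as cpg-1 in replicate 1 (1.62 to 1.74) and 1.64 times in replicate 2 (1.59 to 1.69), a mean ratio of 1.66 ± 0.031 (SD, n = 2). The reads of cpg-1 rest on the longer of 2 annotated coding sequences, which gave whole numbers in both replicates within rounding.

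chs-1 encodes the chitin synthase of the eggshell, an enzyme held at the cortex of the oocyte. It was the lowest of the 10, at 30.98 RPKM in replicate 1 (29.3 to 32.7, 1296 reads) and 26.04 RPKM in replicate 2 (24.7 to 27.4, 1514 reads), with a mean of 28.5 ± 3.49 RPKM (SD, n = 2). Its SD of 12.2% of the mean was the widest of the 10, and its intervals did not overlap. The second chitin synthase gene, chs-2, which is known from the pharynx, was at 0.44 and 0.63 RPKM, on 24 and 47 reads. chs-1 was thus 70.4 times as abundant as chs-2 in replicate 1 (46.5 to 109) and 41.3 times in replicate 2 (30.99 to 56.6).

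egg-1 and egg-2 encode proteins of the oocyte surface with LDL receptor repeats that sperm need to enter. egg-1 was at 113 RPKM in replicate 1 (108 to 118, 1969 reads) and 102 RPKM in replicate 2 (98.5 to 107, 2486 reads), with a mean of 108 ± 7.32 RPKM (SD, n = 2). egg-2 was at 46.3 RPKM in replicate 1 (43.1 to 49.6, 803 reads) and 41.3 RPKM in replicate 2 (38.8 to 44.0, 997 reads), with a mean of 43.8 ± 3.49 RPKM. The replicates of each gene thus lay much closer together than the 2 genes did. egg-1 was 2.44 times as abundant as egg-2 in replicate 1 (2.25 to 2.65) and 2.48 times in replicate 2 (2.30 to 2.67), a mean ratio of 2.46 ± 0.029 (SD, n = 2). The genes are paralogs, and how reads that match both were counted is not given in the sources used here.

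egg-3 encodes a protein related to tyrosine phosphatases that anchors regulators of egg activation at the oocyte cortex. It was at 42.4 RPKM in replicate 1 (39.4 to 45.6, 746 reads) and 40.4 RPKM in replicate 2 (37.95 to 43.03, 988 reads), with a mean of 41.4 ± 1.41 RPKM (SD, n = 2), and the intervals overlapped. Its level was close to that of egg-2, and these 2 were the only neighbours in the order of the 10 genes whose replicate ranges overlapped. egg-6 differs from the rest in that it encodes a transmembrane protein with leucine-rich repeats also known from epithelia, where it helps to organize the apical extracellular matrix. It was at 35.7 RPKM in replicate 1 (33.6 to 37.9, 1085 reads) and 33.8 RPKM in replicate 2 (32.1 to 35.6, 1430 reads), with a mean of 34.7 ± 1.31 RPKM. Its intervals overlapped as well.

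The order by level was perm-2, cpg-2, perm-4, cpg-1, cbd-1, egg-1, egg-2, egg-3, egg-6 and chs-1, and it was the same in each replicate alone. cpg-2 and perm-4 only just kept apart. The lowest value of cpg-2 was 458.93 RPKM and the highest of perm-4 was 457.89 RPKM. Both are values of replicate 2, where the intervals of the 2 genes overlapped (450.2 to 468 and 447 to 469 RPKM). Those of egg-2 and egg-3 overlapped in each replicate, so these steps of the order are within counting error there. Wider steps came after cpg-1, 2.26 times the level of cbd-1, and after egg-1, 2.46 times that of egg-2.

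The replicates were set against each other on the log2(RPKM + 1) scale. Of the 10 genes, 8 were lower in replicate 2, beside 55.5% of the 14313 genes with a mean of at least 1 RPKM. The 2 higher in replicate 2 were perm-2 and perm-4, beside 44.2% of those genes. The median difference of replicate 2 minus replicate 1 was -0.08 for the 10 genes and -0.02 for those 14313 genes. It ran from -0.24 for chs-1 to 0.12 for perm-4, and 0 of the 10 passed a limit of 2-fold, beside 0.713% of genes. Intervals did not overlap with replicate 2 lower for 4 of the 10 (chs-1, egg-1, cbd-1 and cpg-2), beside 12.1% of the 2643 genes with a sum of at least 1500 reads. With replicate 2 higher this held for 2 of the 10 (perm-2 and perm-4), beside 11.7% of those genes. Non-overlap is reached more easily with more reads. The 10 genes had from 1734 to 18662 reads in sum and the 2643 genes were not matched to them in reads, so these shares are not like for like. The counts also depend on the scaling. With the median log2 ratio of the tested genes set to 0, 2 of the 10 were lower (chs-1 and cbd-1) and 2 higher, and with equal sums of RPKM 6 were lower, egg-2 and cpg-1 among them, and 1, perm-4, was higher. The SD of the difference over the 2643 genes was 0.11, and 95% of them lay between -0.25 and 0.20, which took in all 10.

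The difference between the replicates also moved with coding length over the whole table. Among the 2643 genes, 39.8% of 980 with a coding length under 1000 bases were lower in replicate 2, against 56.5% of 940 with 1000 to under 2000 bases and 79.0% of 723 with 2000 bases or more. The class medians were 0.03, -0.02 and -0.07 on the log2 scale. perm-2, with 612 coding bases, and perm-4, with 996, are the shortest of the 10, and both lay in the class whose median was above 0. The 5 genes of 1000 to under 2000 bases and the 3 of 2000 bases or more were all lower in replicate 2. Set against the median of its own class, a comparison chosen after the data were seen, 8 of the 10 were again lower and the same 2 higher, with a median of -0.04. perm-4 was at 0.09 and perm-2 at 0.05 above the class median, while chs-1 was at -0.17, egg-2 at -0.14, egg-1 at -0.12 and egg-6 at -0.002.

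**Figure D2:**
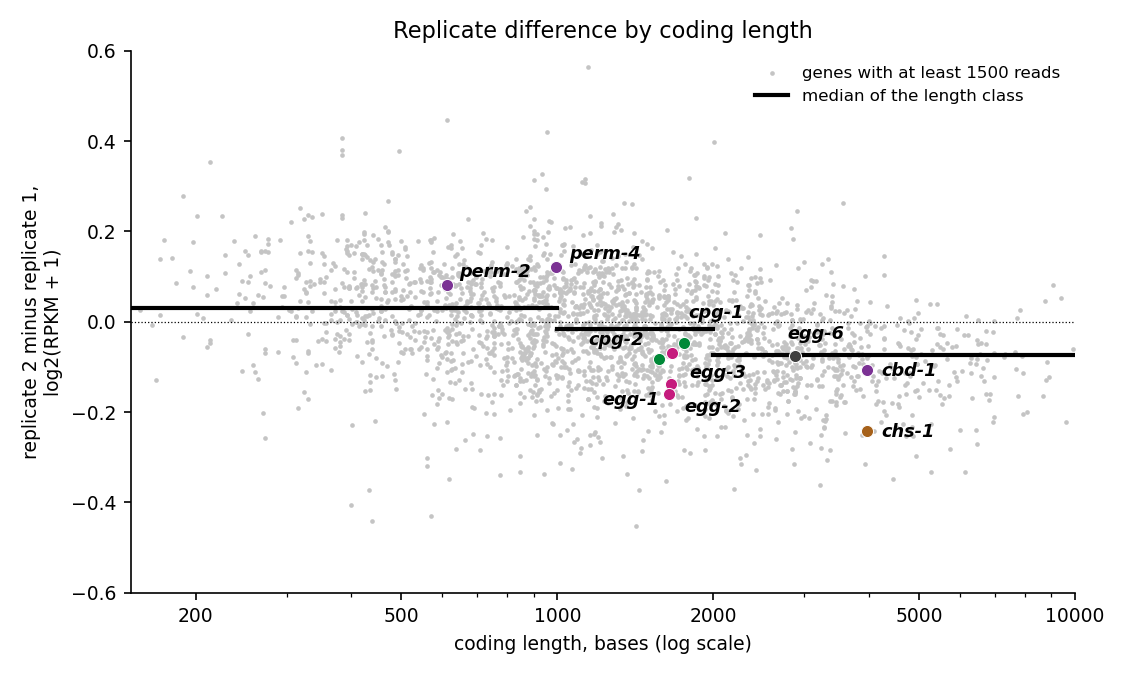
Difference of replicate 2 minus replicate 1 on the log2(RPKM + 1) scale (vertical axis) against coding length in bases (horizontal axis, log scale), for genes with 1500 reads or more in sum (grey; 21 genes lie outside the plotted range) and the 10 genes (coloured by role). Black lines are the medians of 3 length classes, 0.03, -0.02 and -0.07, and perm-2 and perm-4 are the 2 of the 10 above 0.

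In the WBcel235 annotation, 4 of the 10 genes lie on chromosome III, 3 on IV, 2 on I and 1 on II. These chromosomes hold 13.79%, 16.45%, 14.78% and 17.37% of the 17898 genes with a coding length. On V or X lie 0 of the 10, where 23.7% and 13.9% of those genes are. On chromosome III, egg-1 spans 5728180 to 5730159, cpg-1 spans 4489359 to 4491392, egg-2 spans 7058527 to 7060583 and cpg-2 spans 7102092 to 7103990, so that egg-2 and cpg-2 are 41508 bp apart. On chromosome IV, cbd-1 spans 11372991 to 11377627, perm-4 spans 1121494 to 1125107 and perm-2 spans 1126790 to 1128865. egg-3 spans 10882408 to 10884441 on chromosome II, and chs-1 and egg-6 are on chromosome I. perm-2 and perm-4 are next to each other, head to head, with 1682 bp between them, and are the only pair of the 10 that are nearest coding neighbours. Coding lengths ran from 612 bases in 5 exons for perm-2 to 3969 bases in 11 exons for chs-1. The median coding length was 1662 bases for the 10 and 1014 bases for all genes with one.

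Apart from the perm-2 and perm-4 pair, the levels of the 10 genes were mostly well above those of the genes next door. Of the 20 nearest coding neighbours of the 10 genes that do not overlap them, one on each side, 19 had a row, and their median was 9.88 RPKM. Of these, 17 were lower than the gene they flank. Of the 10 genes, 8 were above both neighbours that had a row. The steepest contrast was at cpg-2, where ZK418.11, 42 bp away on the opposite strand, was at 0.31 and 0.15 RPKM. At egg-1 the neighbour B0244.7 was at 0.20 and 0.07 RPKM, and at cbd-1 the F-box gene fbxb-76 was at 0 and 0.51 RPKM. On the side of perm-2 that faces away from perm-4, C50A2.3 was at 2.87 and 5.23 RPKM. chs-1 was the exception besides perm-4, since gpdh-3 on its right was at 107 and 95.7 RPKM. T25G3.1 on its left, at 25.4 and 29.7 RPKM, was below chs-1 in replicate 1 and above it in replicate 2. Genes named here were chosen after their values were seen. Of the 10 genes, 5 overlap another annotated gene by 21 to 101 bp, but 0 coding bases of any of the 10 lie in an exon of another gene. Among the overlapping genes, T25G3.3, on the strand of chs-1, was at 73.1 and 67.4 RPKM and above chs-1. B0244.9 at egg-1 was at 9.61 and 7.54 RPKM, lurp-1 at egg-3 at 3.95 and 4.45 RPKM and C44B12.6 at perm-2 at 0.90 and 0.26 RPKM, all 3 below the gene they overlap.

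**Figure D3:**
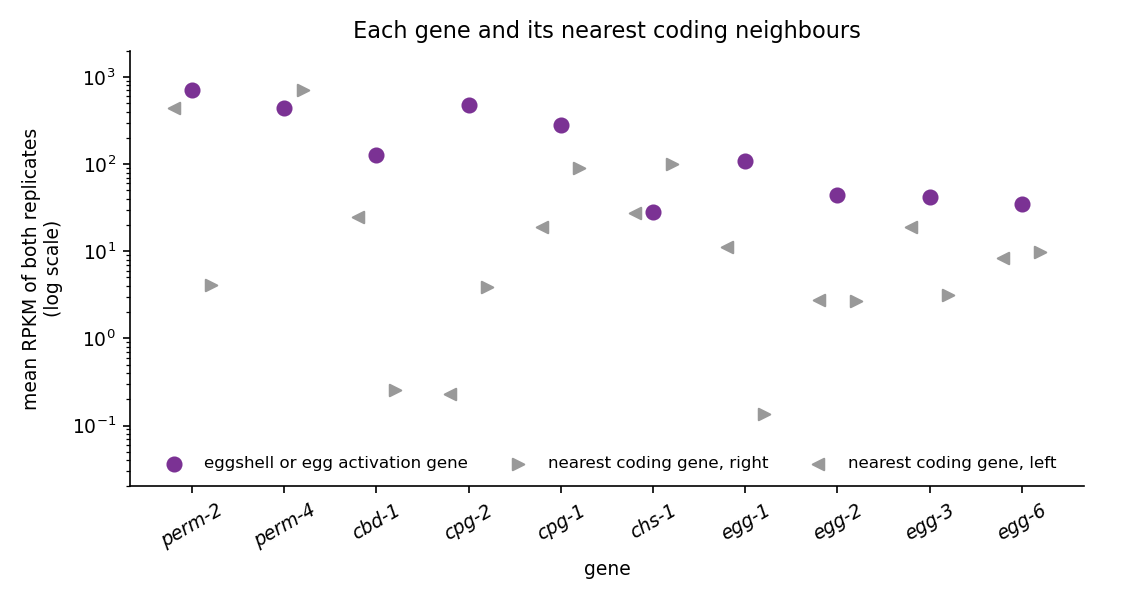
Mean RPKM of both replicates (vertical axis, log scale) of each of the 10 genes (circles) and of the nearest coding gene on its left and right in the annotation that does not overlap it (triangles). Triangles lie below the circle in 17 of 19 cases, and the neighbour above perm-4 is perm-2. The 10 genes rank at percentiles of 77.1 to 98.6, so most genes of the table lie below them.

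Other genes were read from lists named for the same structures or processes. The cpg genes were listed by their name, and a place of each product in the eggshell is not shown here. Of 7 further chondroitin proteoglycan genes, 5 had a row, and 3 of these were at a mean of at least 100 RPKM. cpg-3 was at 421 and 389 RPKM and cpg-9 at 385 and 401.4 RPKM, in the range of cpg-1 and cpg-2, while cpg-4 was lowest at 17.0 and 15.2 RPKM. Their median was 342 RPKM, and 2 of the 5 were lower in replicate 2. Of 9 chondroitin synthesis genes, 9 were above 1 RPKM, and their median of 28.0 RPKM was below that of the proteoglycan genes, though the 2 lists overlapped in level. sqv-4, the UDP-glucose dehydrogenase gene, was highest at 101 and 99.3 RPKM, followed by sqv-7 at 61.1 and 52.5 RPKM, and sqv-6 was lowest at 6.90 and 7.47 RPKM. Of these 9, 8 were lower in replicate 2. Such counts stand beside the 55.5% of all genes given above, here and in the lists below, and are not adjusted for coding length.

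Of the genes that make the precursor of chitin, 5 of 6 were above chs-1 in level. The 7 genes of that list, which also holds chs-2, had a median of 65.7 RPKM. gfat-2 was highest at 107 and 96.5 RPKM, and gfat-1 followed at 91.0 and 86.9 RPKM. Both are named for the aminotransferase that opens the hexosamine pathway. gna-2, an N-acetyltransferase gene of that pathway needed for the eggshell and chosen after its values were seen, was at 71.3 and 60.2 RPKM. gna-1, also chosen after its values were seen, was below chs-1, at 16.2 and 17.0 RPKM. chs-2, described above, was the lowest of the list. Of 5 chitin turnover genes, 0 reached 100 RPKM. The chitinase genes cht-3 at 47.8 and 43.2 RPKM and cht-1 at 15.2 and 15.8 RPKM were highest, and lgx-1 was lowest at 0.37 and 0.28 RPKM.

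Genes listed as egg activation partners ran from levels below that of egg-3 to above it. Their median was 45.6 RPKM, all 9 were above 1 RPKM, and 7 were lower in replicate 2. The kinase gene cdk-1 was highest at 120.4 and 108 RPKM, followed by oma-2, a maternal RNA-binding protein gene, at 109.0 and 105 RPKM. Lowest was mbk-1, at 8.63 and 8.22 RPKM, a gene with the name stem of mbk-2 whose part in egg activation is not shown here. Chosen after their values were seen, mbk-2, the kinase gene whose product EGG-3 anchors, was at 45.01 and 46.2 RPKM, egg-4 at 32.0 and 25.5 RPKM and egg-5 at 25.5 and 27.8 RPKM. egg-4 and egg-5 are near-identical copies that act together to hold MBK-2 back, and reads can be split between them, so their sum is the firmer value. Replicate 1 had a sum of 57.5 RPKM and replicate 2 one of 53.3 RPKM.

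Oocyte genes outside the shell lay within the range of the 10 genes, and most of the listed sperm genes for fertilization were low. The 8 listed genes for oocyte RNA-binding proteins and the yolk receptor that had a row were at a median of 93.2 RPKM. Of the 8, 7 were lower in replicate 2. pos-1 was highest at 247 and 231 RPKM, spn-4 followed at 169 and 148 RPKM, and oma-1 was lowest at 63.6 and 57.7 RPKM. The yolk protein genes, expressed in the intestine, were all 5 lower in replicate 2, as were 79.0% of the 723 well-covered genes in their class of coding length, with vit-6 at 3153 and 2956 RPKM, vit-2 at 2669 and 2535 RPKM and vit-1 lowest at 392 and 333 RPKM. Of 9 sperm genes for fertilization with a row, 4 reached 1 RPKM, with a median of 0.81 RPKM over the 9. spe-11, whose product the sperm brings into the egg for its activation, stood out at 25.3 and 25.7 RPKM, spe-41 was at 2.96 and 3.43 RPKM and spe-49 was lowest at 0.69 and 0.46 RPKM.

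The lipid barrier, cortical granule and epithelial lists completed the set. The median of 8 permeability barrier genes was 30.1 RPKM, and 4 of them were lower in replicate 2. emb-8, a cytochrome P450 reductase gene, was highest at 97.0 and 93.4 RPKM, pod-2, an acetyl-CoA carboxylase gene, was at 68.1 and 68.4 RPKM and dgtr-1 was lowest at 11.07 and 12.01 RPKM. Of 3 granule traffic genes with a row, the small GTPase gene rab-11.1 was at 442 and 468 RPKM, rab-6.1 at 84.9 and 76.3 RPKM and the caveolin gene cav-1 at 59.2 and 65.7 RPKM. Among 8 epithelial matrix genes, set beside egg-6, the median was 14.3 RPKM and 3 were lower in replicate 2. noah-2 was at 75.5 and 80.3 RPKM, noah-1 at 56.2 and 59.9 RPKM, and let-4, a gene with leucine-rich repeats like egg-6, was lowest at 2.33 and 2.26 RPKM.

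**Figure D4:**
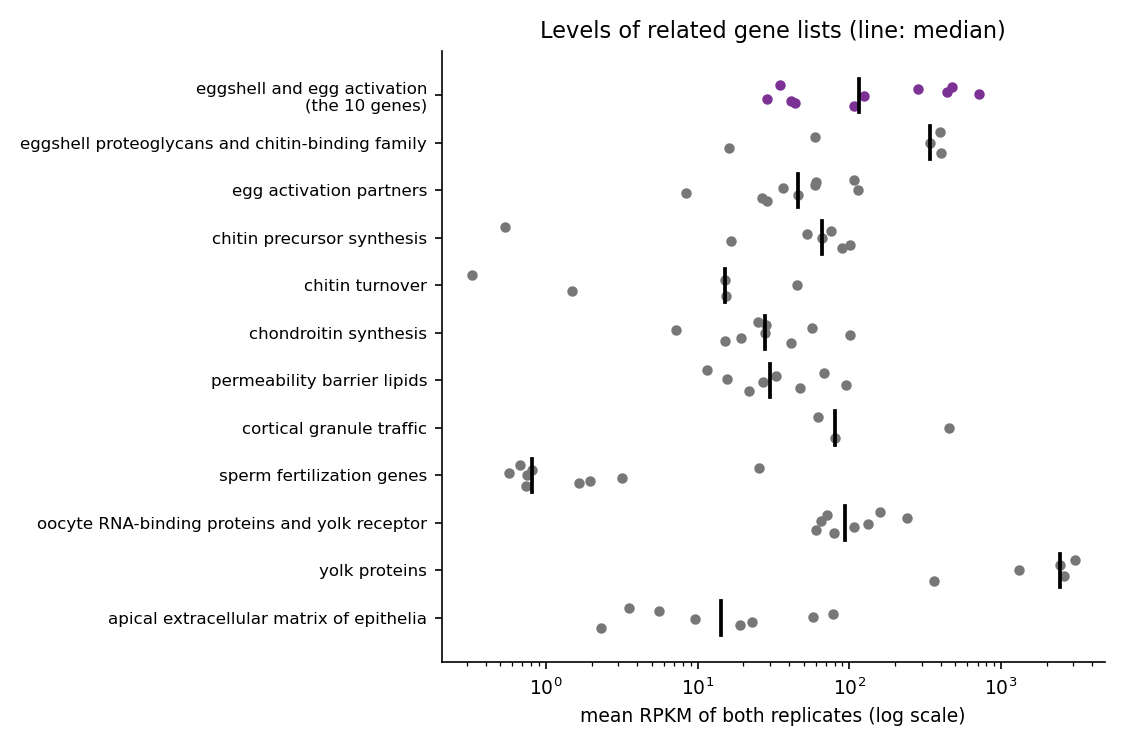
Mean RPKM of both replicates (horizontal axis, log scale) of the 10 eggshell and egg activation genes (purple) and of genes in 11 related lists (grey), with the median of each list as a black line. The 10 genes have a median of 117 RPKM, below that of the yolk protein and proteoglycan lists and above that of the other 9.

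With 2 samples of 1 group, a gene's pattern is its level and 1 replicate difference. By distance on the log2(RPKM + 1) scale over both replicates, F21C10.11 was nearest to perm-2, at 702 and 732 RPKM, and 16 genes lay within 0.1. pme-2 was nearest to egg-6, at 35.8 and 33.7 RPKM, with 186 genes within 0.1.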

How the data were processed

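TruSeq RNA libraries were made from total RNA, per the labels' protocols. CASAVA 1.8.2 is named in the submitters' processing notes. For the aligner, the counter, the annotation and the build, the answer is not given in the sources used here. RPKM per gene and replicate was deposited by the authors in 1 table, per the file headers. It held 19990 rows. Commas were removed from values of 1000 or more, and 104 rows for parts of genes and 12 rows with repeated names were left out.

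Names were matched to Ensembl release 115 of WBcel235, 15965 by symbol and 2874 by sequence name, and its positions and coding lengths (stop codon included) are printed. Depth was read from RPKM times coding length, over genes with 1 annotated coding length, as the depth that brought these values closest to whole reads. At 20 reads or fewer, 87.7% of their values in replicate 1 and 88.3% in replicate 2 were whole within 0.1 read. From 20 to 10000 reads, 94.1% and 94.2% were. Chance gives 20%, but the depth was fitted to these same values, so the shares are no independent check. For read numbers of genes with several coding lengths the longest was used, which these shares do not cover. The method was tested on data simulated with these same coding lengths, so that test does not cover a length that differs from the one the authors used.

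The design has 1 group, so no test was made and no p-value calculated. Differences are on the log2(RPKM + 1) scale. Intervals of ratios are exact binomial. Replicate numbers come from the labels. The 10 genes and 16 lists were chosen with earlier results of these data known. Named genes are the 10, and the 2 highest and the lowest of each list other than the stage and tissue markers. Alternatives were other scalings, pseudocounts, filters and limits, and leaving out each replicate. The tools were scipy 1.17.1, pandas 2.3.3 and numpy 2.4.6 under Python 3.11.15, with matplotlib 3.10.9 for figures.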

Additional observations from a re-analysis of the deposited data

How the results depend on the processing

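Of 143 alternative values for 33 results, 134 stayed within the replicate or counting spread of the main value or, for counts, within 1.5 times the main count, and none changed direction. Part of this tally was fixed in advance. For the mean of a gene and the ratio of a pair, either of 2 replicates alone always lies within their SD of the mean. Those values therefore say nothing on stability. At that tolerance the 4 of 10 genes at 200 RPKM or more, in place of 6 at 100 RPKM, count as unmoved. Without each replicate in turn the median of the 10 genes ran from 112 to 122 RPKM and their order did not change. In replicate 2, though, the intervals of cpg-2 and perm-4 overlapped, as did those of egg-2 and egg-3. Without egg-6 the median was 126 RPKM. The median percentile rank was 90.7 among genes with a mean of at least 1 RPKM and 87.4 among those with at least 5 RPKM, since fewer low genes were ranked. Of the 10 genes, 8 were lower in replicate 2 under every scaling and pseudocount tried, at -0.27 to -0.02 on the log2 scale, and perm-2 and perm-4 were higher, at 0.00 to 0.15. The value of perm-2 was 0.00 after quantile normalization, so its difference did not hold there. Non-overlap of intervals depended on scaling, in alternatives added after seeing the data. With the median log2 ratio set to 0 it held for 2 genes lower in replicate 2, and with equal sums of RPKM for 6 lower and 1 higher. No paired analysis was possible because there is 1 group. The depth limits statements on genes under a few reads, not on the 10 genes.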

Other observations

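perm-3, a gene with the same name stem as perm-2 and perm-4 that is in none of the lists and was chosen after its values were seen, reached 78.3 RPKM in replicate 1 and 74.5 RPKM in the other. Its mean of 76.4 ± 2.65 RPKM (SD, n = 2) placed it between egg-1 and egg-2.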
